A study of Homo sapiens with 12 samples.

Results

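The translation initiation factors are the genes whose names begin with EIF and a digit in the deposited count table of PC3 and DU145 prostate cancer cells treated with pentamidine. The table held 99 such names among 32077 genes. After EIF2S1, EIF2AK1, EIF2AK2, EIF2AK3, EIF2AK4, processed copies and names with a hyphen were set aside, 48 genes were left. Of these, 47 reached 10 counts in at least 3 samples and form the set described here, and EIF4EBP3, with 0 to 8 counts, did not. The set holds 4 eIF1 genes, 4 eIF2 genes, 5 eIF2B genes, 14 eIF3 genes, 12 eIF4 genes, 2 EIF4EBP genes and 6 eIF5 and eIF6 genes.

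PC3 and DU145 are established human prostate cancer lines, grown from a bone and a brain metastasis, and both are labelled wild type. Each line received 2.5 µmol/L pentamidine, a drug used against protozoa and fungi, or the vehicle, sterile water, for 48 hours, and poly(A)-selected RNA was sequenced. The 4 groups held 3 samples each, 12 in all, with total counts of 13514195 to 15131436 per sample. The labels do not say whether the 3 samples of a group were separate cultures, so the p-values measure the spread between these samples, which may be technical. Among epithelial genes, EPCAM had 0 to 2 counts and CDH1 0 to 10 counts in every sample, whereas the keratin KRT8 measured 20.2 ± 1.51 CPM (counts of each 1000000 in the library, after TMM scaling) in vehicle-treated PC3 cells and 2707 ± 89.3 in vehicle-treated DU145 cells (SD, n = 3). Counts of EPCAM and CDH1 this low are unusual for carcinoma lines, and what they say of the lines or of the table was not tested. The prostate luminal genes KLK3 and FOLH1 had at most 2 counts in any sample. PTPRC, CD14, PECAM1 and VWF, which mark blood and endothelial cells, had at most 10. Vehicle replicate 1 of PC3 cells stood apart: the chi-square per gene between its counts and those of replicates 2 and 3 was 5.98 and 7.30, where that between replicates 2 and 3 was 3.64 and the pairs within the other groups had 1.72 to 3.13 (a measure of how far a pair of libraries differ beyond counting noise). Without it, 23 members were higher and 11 lower in PC3 cells, and the calls lost were that of EIF4G2 in PC3 cells (0.11, adjusted p = 0.0834) and that of EIF4ENIF1 between the vehicle-treated lines (-0.14, adjusted p = 0.122).

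Initiation is the step in which a ribosome finds the start codon of an mRNA. eIF2, bound to GTP and the initiator tRNA, joins the small ribosomal subunit together with eIF1, eIF1A, eIF3 and eIF5, while eIF4E, eIF4G and eIF4A recognise the cap and unwind the mRNA. After the start codon is met, eIF5 triggers hydrolysis of the GTP, eIF5B brings in the large subunit, and eIF2B recharges eIF2. The EIF4EBP proteins hold eIF4E away from eIF4G, and cells regulate initiation mainly through phosphorylation of these repressors and of eIF2, which mRNA counts do not measure.

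The promoter sequences of 3 members that were higher after pentamidine in both lines are shown because these genes, EIF1, EIF1B and EIF3F, are among the 4 members with the largest mean change in that direction that had an entry in the RefSeq promoter table (GRCh38.p14). The fourth, EIF3C, is described with its near-identical copy further on, and EIF4EBP1 and EIF2S2, whose mean changes were also among the largest, are named only. Each window runs 5′ to 3′ over the 250 bases before the start annotated in RefSeq, on the plus strand, at chr17:41688635-41688884 for EIF1, chr3:40309457-40309706 for EIF1B and chr11:7987087-7987336 for EIF3F. The last of these lies inside the EIF3F gene as the count table bounds it (chromosome 11, 7970251 to 8001862). The end of the EIF1B window also lies inside its gene as bounded there (chromosome 3, 40309684 to 40312424). Capitals mark CACGTG, the E-box core bound by MYC and related factors.
EIF1: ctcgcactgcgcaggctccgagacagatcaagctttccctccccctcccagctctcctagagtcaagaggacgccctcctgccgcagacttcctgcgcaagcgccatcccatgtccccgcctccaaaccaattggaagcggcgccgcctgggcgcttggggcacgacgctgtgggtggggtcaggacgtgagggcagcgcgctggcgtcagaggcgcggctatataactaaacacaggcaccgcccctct
EIF1B: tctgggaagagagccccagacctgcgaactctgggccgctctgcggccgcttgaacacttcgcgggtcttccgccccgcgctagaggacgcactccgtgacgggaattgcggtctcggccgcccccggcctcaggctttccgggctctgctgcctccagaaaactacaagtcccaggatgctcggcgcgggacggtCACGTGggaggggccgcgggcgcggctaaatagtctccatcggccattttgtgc
EIF3F: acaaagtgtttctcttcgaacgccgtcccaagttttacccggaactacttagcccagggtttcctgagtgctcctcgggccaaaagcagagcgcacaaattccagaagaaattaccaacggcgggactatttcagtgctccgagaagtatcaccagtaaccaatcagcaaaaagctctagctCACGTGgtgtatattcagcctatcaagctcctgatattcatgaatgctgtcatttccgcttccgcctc
The EIF1B window held CACGTG 54 bases before the RefSeq start and the EIF3F window 68 bases before it, while the EIF1 window held none. Windows were searched on both strands for CACGTG, for TGATGNAA, the composite element read by ATF4, and for CCGGAAGT, the site of ETS family factors, and no match overlapped a different motif. CACGTG occurred in 10 of 54 windows of members, which cover 39 members (18.5%), and in 6.34% of all 35116 windows of the table. TGATGNAA occurred in 1 of the 54 (1.85%, against 3.14% of all windows) and CCGGAAGT in 7 (13%, against 3.42%). Windows of the same gene were counted separately, and the 7 include windows 1 and 2 of EIF6. Of the 9 windows of members higher in both lines, 3 held CACGTG (33.3%) and none held TGATGNAA or CCGGAAGT. EIF4E and EIF4G1, which were lower after pentamidine in both lines, held CACGTG at 2 positions each. These matches are a description of the letters in the windows and were not tested.

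Pentamidine was followed by higher mRNA levels of many initiation factors in PC3 cells, and by increases and decreases in nearly equal number in DU145 cells. In PC3 cells, 23 of 46 members tested were higher (50%, where 21.7% of all 13861 genes tested were higher) and 10 were lower (21.7%, where 21.7% of all genes were lower), by the quasi-likelihood test of edgeR at a Benjamini-Hochberg adjusted p below 0.05. In DU145 cells, 14 of 47 members were higher (29.8%, against 17.2% of 14313 genes) and 16 were lower (34%, against 16.8%). With library size alone as the scaling, the DU145 split was 19 higher and 8 lower. The median log2 fold change of the members was 0.13 in PC3 and -0.015 in DU145 cells (0.11 and 0.035 with library size alone), where that of all genes tested was 0.0046 and 0.0085. Most changes were small: 1 member in PC3 cells, EIF4EBP1, passed an absolute log2 fold change of 1 (4.75% of all genes did), and none of the 47 did in DU145 cells (2.03% of all genes). The 3 vehicle and 3 pentamidine samples did not overlap for 34 members in PC3 cells, where 52.1% of all genes did not, and for 35 members in DU145 cells, where 44% did not. The counts are relative to the RNA of the whole culture, in which fewer cells of a kind and less RNA per cell cannot be told apart.

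**Figure D1:**
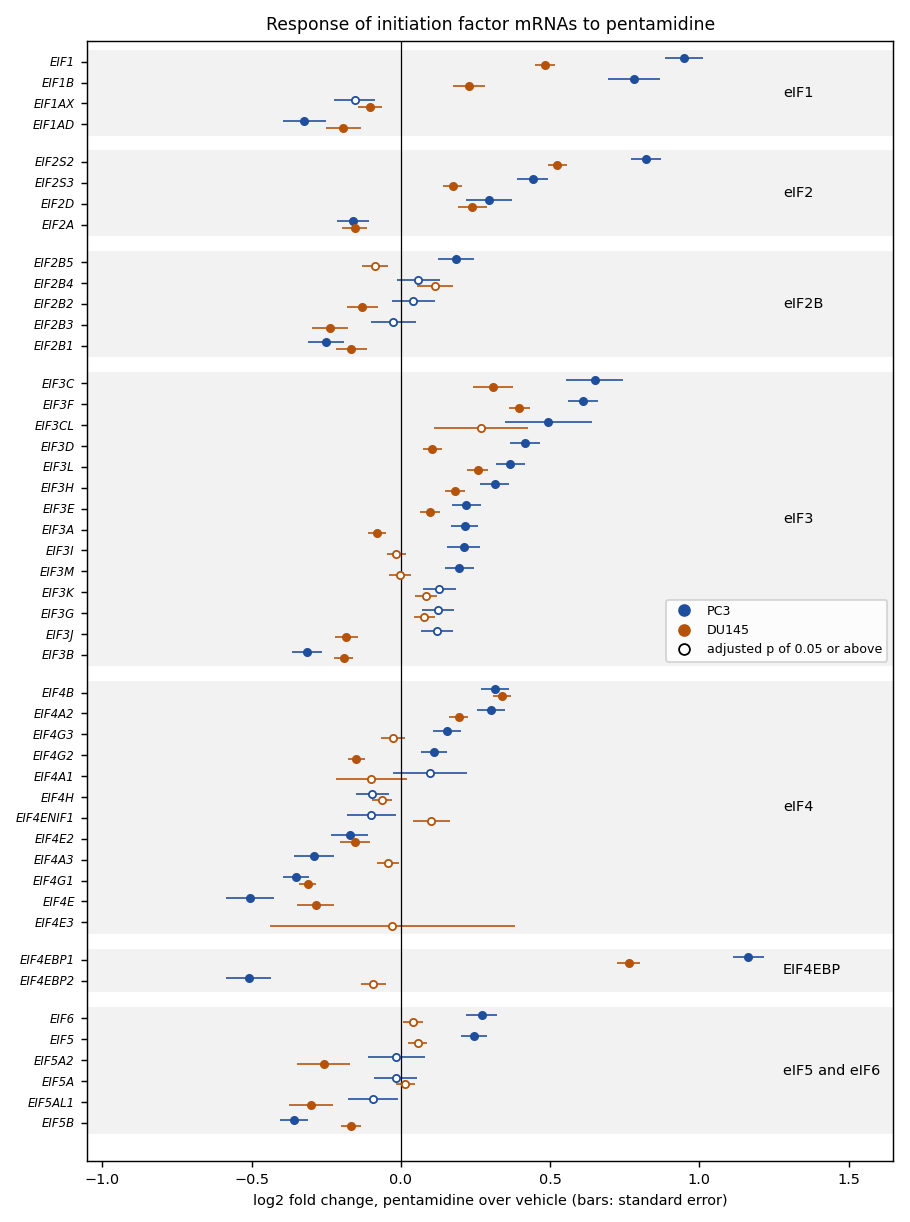
Log2 fold change of every member, pentamidine over vehicle, in PC3 (blue) and DU145 cells (orange), grouped by complex. Bars are the standard error of the edgeR fit (3 samples per group) and open circles mark an adjusted p of 0.05 or above. EIF4EBP1, EIF1 and EIF2S2 lie furthest to the right in both lines, 13 of 14 eIF3 members lie right of 0 in PC3 cells, and EIF4E lies furthest left of the eIF4 genes in PC3 cells.

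The share of all counts that fell on the 47 members was 1.16% ± 0.0161 with vehicle and 1.29% ± 0.0161 with pentamidine in PC3 cells (SD, n = 3), and 1.25% ± 0.00633 and 1.31% ± 0.000942 in DU145 cells. The shares in this paragraph are of raw totals, without TMM scaling. In DU145 cells the TMM factors were 0.973 to 0.976 with vehicle and 1.008 to 1.015 with pentamidine. The rises in share in DU145 cells are therefore smaller on the TMM scale. The eIF3 genes took 0.396% ± 0.0039 and 0.455% ± 0.00822 of counts in PC3 cells, and 0.386% ± 0.00183 and 0.413% ± 0.00378 in DU145 cells. The eIF4 genes took a slightly smaller share with pentamidine, from 0.427% ± 0.000928 to 0.421% ± 0.00115 in PC3 cells. In DU145 cells their share went from 0.480% ± 0.00254 to 0.467% ± 0.00855, and the samples overlapped in neither line. Counts on mitochondria-encoded genes moved with treatment in the same libraries, from 3.79 to 3.91% down to 2.66 to 2.76% in PC3 cells and from 4.41 to 4.66% down to 1.97 to 2.07% in DU145 cells. With these genes left out of the library sizes and scaling, 23 members were higher and 10 lower in PC3 cells, and 14 higher and 16 lower in DU145 cells.

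The factors that guard start codon choice led the eIF1 genes. EIF1 encodes eIF1, which keeps the scanning ribosome open until it meets an AUG, and its gene lies at chromosome 17, 41688885 to 41692668 (GRCh38, plus strand). Its level, in CPM, was 327, 371 and 384 in the 3 vehicle-treated PC3 samples and 682, 739 and 661 with pentamidine. DU145 samples held 282, 287 and 282 with vehicle and 416, 392 and 378 with pentamidine. The treated samples lay above the vehicle samples in both lines without overlap, and the log2 fold change was 0.95 ± 0.063 (SE, adjusted p = 2.28e-09) in PC3 and 0.48 ± 0.034 (SE, adjusted p = 2.13e-17) in DU145 cells, or 1.93-fold and 1.40-fold. EIF1B, a close paralog on chromosome 3 (40309684 to 40312424), measured 28.9, 34.4 and 31.7 CPM with vehicle and 54.8, 59.8 and 48.3 with pentamidine in PC3 cells. DU145 samples measured 58.4, 57.0 and 58.5 with vehicle and 73.4, 62.9 and 66.8 with pentamidine. It rose by 0.78 ± 0.088 (SE, adjusted p = 1.61e-06) on the log2 scale in PC3 and 0.23 ± 0.054 (SE, adjusted p = 0.000681) in DU145 cells, again without overlap, and pentamidine-treated PC3 cells reached about the level of vehicle-treated DU145 cells.

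The other eIF1 genes had log2 fold changes below 0. EIF1AD, which carries an eIF1A-like domain, measured 38.9, 38.7 and 41.4 CPM with vehicle and 29.8, 32.9 and 32.1 with pentamidine in PC3 cells. The values for DU145 were 49.8, 47.2 and 53.8 with vehicle and 44.1, 44.3 and 43.1 with pentamidine. It fell in both lines, with log2 fold changes of -0.32 ± 0.073 (SE, adjusted p = 0.00169) and -0.19 ± 0.059 (SE, adjusted p = 0.00889). The DU145 call was lost without vehicle replicate 3 (-0.14, adjusted p = 0.11) and with library size alone (-0.14, adjusted p = 0.0567). BANF1 overlaps it on the opposite strand with 512% of its mean count. Reads from any exon stretch the pair shares cannot be told apart if strand was not used. Here and below, overlaps were taken from the bounds of whole genes, and how much exon a pair shares was not measured. EIF1AX, which encodes eIF1A, the partner of eIF1 in scanning, had overlapping samples in both lines and log2 fold changes of -0.15 ± 0.068 (SE, adjusted p = 0.0757) and -0.10 ± 0.041 (SE, adjusted p = 0.0469). The DU145 call was lost with DESeq2 (adjusted p = 0.102), in the fit of all 12 samples (0.188), with the replicate block (0.0565), with library size alone (-0.053, adjusted p = 0.341) and without vehicle replicate 2 or 3 or pentamidine replicate 2 or 3 (-0.083 to -0.095).

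Of the 4 genes named for eIF2, 3 rose and 1 fell in each line (75% and 25%, where 21.7% and 21.7% of all genes did in PC3 and 17.2% and 16.8% in DU145 cells), and EIF2S2 had the highest value of them in both. EIF2S2 encodes eIF2 beta, on chromosome 20 (34088298 to 34112332, minus strand). It measured 365, 391 and 393 CPM with vehicle and 661, 693 and 668 with pentamidine in PC3 cells. DU145 cells had 371, 398 and 385 with vehicle and 563, 549 and 543 with pentamidine. The vehicle samples of the lines overlapped, the treated samples did not overlap the vehicle samples, and the log2 fold change was 0.82 ± 0.05 (SE, adjusted p = 6.58e-10) in PC3 and 0.52 ± 0.032 (SE, adjusted p = 8.33e-20) in DU145 cells, or 1.77-fold and 1.44-fold. The processed copy EIF2S2P4 held 9.83 to 11.6% of the EIF2S2 count and had log2 fold changes of 0.81 and 0.54, and RALY, on the opposite strand, had 55.1% of its mean count.

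EIF2S3, for eIF2 gamma, the subunit that binds GTP and the tRNA, measured 161, 176 and 173 CPM with vehicle and 230, 232 and 229 with pentamidine in PC3 cells. In DU145 cells the values were 290, 302 and 302 with vehicle and 328, 338 and 338 with pentamidine, so that every DU145 sample, treated or not, lay above every PC3 sample. The log2 fold change was 0.44 ± 0.052 (SE, adjusted p = 2.74e-06) in PC3 and 0.17 ± 0.033 (SE, adjusted p = 2.74e-05) in DU145 cells. EIF2D, which can place tRNA on the ribosome without eIF2, rose by 0.29 ± 0.077 and 0.24 ± 0.049 on the log2 scale (SE, adjusted p = 0.00513 and 9.38e-05). EIF2A, a separate protein and no subunit of eIF2, was the only one of the 4 to fall. Its levels were 92.3, 96.2 and 91.8 CPM with vehicle and 83.0, 84.5 and 82.7 with pentamidine in PC3 cells. In DU145 samples they were 132, 131 and 139 with vehicle and 115, 116 and 129 with pentamidine. The log2 fold changes of EIF2A were -0.16 ± 0.054 (SE, adjusted p = 0.0248) and -0.15 ± 0.043 (SE, adjusted p = 0.00337). The PC3 call was lost with the replicate block (adjusted p = 0.0505), without vehicle replicate 2 or without any 1 of the treated samples (-0.14 to -0.17), and the DU145 call with library size alone. SERP1 overlaps it on the opposite strand with 101% of its mean count.

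Of the 5 genes of eIF2B, the exchange factor that reloads eIF2 with GTP, 1 was higher and 1 lower in PC3 cells (20% and 20%, against 21.7% and 21.7% of all genes), and 3 were lower and none higher in DU145 cells (60% lower, against 16.8%). With library size alone the DU145 calls for EIF2B1 and EIF2B2 were lost (-0.12 and -0.080). EIF2B5, for the catalytic epsilon subunit, was the highest in PC3 cells, with 68.7, 66.7 and 66.4 CPM with vehicle and 76.4, 79.9 and 72.4 with pentamidine, or 0.19 ± 0.06 (SE, adjusted p = 0.0185) on the log2 scale. Its DU145 values were 107, 103 and 106 with vehicle and 101, 95.3 and 101 with pentamidine, with a log2 fold change of -0.086 ± 0.043 (SE, adjusted p = 0.115). The groups of samples did not overlap in either line, above the vehicle in PC3 and below it in DU145 cells, although only the PC3 change passed the test, and not without vehicle replicate 2 or pentamidine replicate 1 or 2 (0.15 to 0.18).

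EIF2B1, for the alpha subunit that senses phosphorylated eIF2, fell in both lines. It measured 91.7, 101 and 92.2 CPM with vehicle and 82.2, 78.3 and 78.1 with pentamidine in PC3 cells. DU145 samples measured 64.1, 69.6 and 65.6 with vehicle and 58.0, 59.6 and 59.6 with pentamidine. The log2 fold changes of EIF2B1 were -0.25 ± 0.059 (SE, adjusted p = 0.00241) and -0.17 ± 0.052 (SE, adjusted p = 0.0098), and the DU145 call was lost without vehicle replicate 2 (-0.13, adjusted p = 0.0774). GTF2H3 and DDX55 overlap it on the opposite strand with 77.8% and 82.5% of its mean count. EIF2B3, for the gamma subunit, was the lowest in DU145 cells, at 46.0, 46.5 and 44.7 CPM with vehicle and 39.6, 38.8 and 37.7 with pentamidine (log2 fold change -0.24 ± 0.061 SE, adjusted p = 0.00165). Its PC3 samples overlapped, at 52.5, 54.5 and 60.6 with vehicle and 50.2, 58.6 and 55.2 with pentamidine (log2 fold change -0.026 ± 0.075 SE, adjusted p = 0.806). EIF2B4, for the delta subunit, had the highest value of the 5 in DU145 cells, 0.11 ± 0.06 (SE, adjusted p = 0.137), on 47.8, 52.1 and 46.6 CPM with vehicle and 55.5, 54.7 and 47.9 with pentamidine, which overlapped. Its PC3 samples, 44.9, 51.2 and 48.3 with vehicle and 52.9, 49.0 and 48.0 with pentamidine, overlapped too (log2 fold change 0.058 ± 0.072 SE, adjusted p = 0.547). EIF2B2, for the beta subunit, fell in DU145 cells (log2 fold change -0.13 ± 0.052 SE, adjusted p = 0.0476) and had 0.041 ± 0.072 (SE, adjusted p = 0.677) in PC3 cells. The DU145 call of EIF2B2 was lost under 9 alternatives, among them DESeq2 (adjusted p = 0.113), the replicate block (0.0561) and leaving out replicate 1 or 3 of either group (-0.11 to -0.14).

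eIF3, the large scaffold that holds the scanning complex together, is the largest group. In PC3 cells 10 of its 14 genes rose (71.4%, against 21.7% of all genes) and 1 fell (7.14%, against 21.7%), and in DU145 cells 6 rose (42.9%, against 17.2%) and 3 fell (21.4%, against 16.8%). The 10 that rose in PC3 cells include both of the near-identical EIF3C and EIF3CL, which can share reads. The median log2 fold change of the 14 was 0.22 in PC3 and 0.091 in DU145 cells. EIF3F, on chromosome 11, encodes a subunit of the complex. It measured 217, 221 and 230 CPM with vehicle and 346, 340 and 330 with pentamidine in PC3 cells. The values for DU145 were 279, 273 and 287 with vehicle and 376, 374 and 352 with pentamidine. The groups did not overlap and the log2 fold change was 0.61 ± 0.049 (SE, adjusted p = 2.71e-08) in PC3 and 0.40 ± 0.034 (SE, adjusted p = 2.31e-14) in DU145 cells.

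EIF3C had the highest value of the 14 in PC3 cells, but can share reads with the near-identical EIF3CL. EIF3C, at chromosome 16, 28688558 to 28735730, measured 50.7, 43.5 and 43.2 CPM with vehicle and 60.4, 70.7 and 83.7 with pentamidine in PC3 cells. DU145 cells had 30.7, 34.2 and 34.2 with vehicle and 42.0, 39.8 and 40.6 with pentamidine. Its log2 fold change was 0.65 ± 0.096 (SE, adjusted p = 3.49e-05) and 0.31 ± 0.066 (SE, adjusted p = 0.000166). EIF3CL stood at 2.25 ± 0.181 CPM per kilobase of exon with vehicle in PC3 cells, against 6.56 ± 0.602 for EIF3C (SD, n = 3), and had log2 fold changes of 0.49 ± 0.15 (SE, adjusted p = 0.0112) and 0.27 ± 0.16 (SE, adjusted p = 0.194). The PC3 call of EIF3CL was lost without pentamidine replicate 2 (0.40, adjusted p = 0.07). How the authors' counting divided reads between the copies is not given in the sources used here, so each of these levels is uncertain.

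EIF3D, for a subunit that can itself bind the cap of some mRNAs, rose more in PC3 than in DU145 cells. It measured 348, 330 and 358 CPM with vehicle and 446, 482 and 449 with pentamidine in PC3 cells. In DU145 samples they were 340, 327 and 325 with vehicle and 362, 355 and 348 with pentamidine. The log2 fold changes of EIF3D were 0.42 ± 0.051 (SE, adjusted p = 4.47e-06) and 0.11 ± 0.032 (SE, adjusted p = 0.00891). The DU145 call was lost in the fit of all 12 samples (0.10, adjusted p = 0.0822), and without vehicle replicate 3 or pentamidine replicate 1 or 2 (0.088 to 0.099). EIF3L, EIF3H and EIF3E rose in both lines, by 0.37, 0.31 and 0.22 on the log2 scale in PC3 and 0.26, 0.18 and 0.098 in DU145 cells, with adjusted p of at most 0.0161. The DU145 value of EIF3E fell to 0.055 (adjusted p = 0.21) without vehicle replicate 1, and its call was also lost without pentamidine replicate 2 (0.080, adjusted p = 0.131) and in the fit of all 12 samples (0.093, adjusted p = 0.10). EIF3G and EIF3K had values of 0.078 to 0.13 in the lines and passed the test in neither.

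EIF3I was higher in PC3 cells, at 436, 450 and 505 CPM with vehicle and 522, 550 and 532 with pentamidine (log2 fold change 0.21 ± 0.056 SE, adjusted p = 0.00598). In DU145 cells it measured 441, 420 and 425 with vehicle and 437, 430 and 401 with pentamidine, which overlapped (log2 fold change -0.015 ± 0.033 SE, adjusted p = 0.772). EIF3M likewise rose in PC3 cells, from 212, 209 and 213 to 243, 247 and 234 CPM (log2 fold change 0.20 ± 0.048 SE, adjusted p = 0.0031), and overlapped in DU145 cells, at 174, 178 and 174 with vehicle and 169, 175 and 180 with pentamidine (log2 fold change -0.002 ± 0.037 SE, adjusted p = 0.974).

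Among the other eIF3 genes the lines parted or both fell. EIF3A, for the largest subunit, measured 821, 778 and 786 CPM with vehicle and 890, 937 and 930 with pentamidine in PC3 cells. DU145 samples measured 882, 853 and 873 with vehicle and 805, 836 and 818 with pentamidine. It rose in PC3 cells (log2 fold change 0.21 ± 0.045 SE, adjusted p = 0.00104) and fell in DU145 cells (log2 fold change -0.079 ± 0.029 SE, adjusted p = 0.0302), in neither case with overlap. The DU145 call was lost with library size alone (-0.029), in the fit of all 12 samples (-0.084) and without vehicle replicate 1 or 3 or pentamidine replicate 1 or 3 (-0.070 to -0.082). EIF3J, for a loosely bound subunit that helps eIF3 to the ribosome, measured 211, 204 and 192 CPM with vehicle and 208, 228 and 223 with pentamidine in PC3 cells, which overlapped (log2 fold change 0.12 ± 0.053 SE, adjusted p = 0.0749), and 149, 150 and 147 with vehicle and 130, 133 and 128 with pentamidine in DU145 cells, where it fell (log2 fold change -0.18 ± 0.038 SE, adjusted p = 0.000138). SPG11 overlaps EIF3J on the opposite strand with 43.1% of its mean count. EIF3B, the subunit to which EIF3G and EIF3I bind, was the eIF3 gene that fell in both lines. It measured 433, 412 and 437 CPM with vehicle and 340, 356 and 331 with pentamidine in PC3 cells. The values for DU145 were 426, 430 and 413 with vehicle and 366, 365 and 378 with pentamidine. The log2 fold changes of EIF3B were -0.31 ± 0.049 (SE, adjusted p = 5.76e-05) and -0.19 ± 0.032 (SE, adjusted p = 2.71e-06). SNX8 overlaps EIF3B on the opposite strand with 27.7% of its mean count.

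The genes of the cap-binding machinery were split. In PC3 cells 4 of 11 tested eIF4 genes rose and 4 fell (36.4% each, against 21.7% of all genes in either direction). In DU145 cells 2 of 12 rose (16.7%, about the 17.2% of all genes) and 4 fell (33.3%, against 16.8%). EIF4E, which encodes the protein that binds the cap (chromosome 4, 98871684 to 98930637, minus strand), measured 51.4, 51.0 and 42.4 CPM with vehicle and 32.4, 34.5 and 34.9 with pentamidine in PC3 cells. The DU145 values were 43.4, 45.6 and 45.8 with vehicle and 34.6, 38.1 and 37.6 with pentamidine. All treated samples lay below all vehicle samples of their line, and the log2 fold change was -0.51 ± 0.08 (SE, adjusted p = 6.94e-05) in PC3 and -0.29 ± 0.063 (SE, adjusted p = 0.000254) in DU145 cells. The processed copy EIF4EP2 held 23 to 31.1% of the EIF4E count.

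EIF4G1, the scaffold that links the cap-binding protein to eIF4A and eIF3, fell in both lines. Its levels were 1274, 1206 and 1257 CPM with vehicle and 971, 969 and 981 with pentamidine in PC3 cells. DU145 cells had 1584, 1555 and 1502 with vehicle and 1215, 1225 and 1286 with pentamidine. The samples did not overlap and the log2 fold changes were -0.35 ± 0.044 (SE, adjusted p = 5.73e-06) and -0.31 ± 0.029 (SE, adjusted p = 7.22e-13), with a difference between the lines of -0.038 ± 0.051 (SE, adjusted p = 0.669). EIF4B, which stimulates the helicase, was the eIF4 gene with the highest value in both lines, at 447, 449 and 465 CPM with vehicle and 555, 564 and 570 with pentamidine in PC3 cells. In DU145 samples they were 477, 471 and 480 with vehicle and 598, 601 and 601 with pentamidine. It rose by 0.32 ± 0.045 (SE, adjusted p = 2.64e-05) in PC3 and 0.34 ± 0.03 (SE, adjusted p = 1.06e-13) in DU145 cells on the log2 scale, the only member higher in both lines whose value was not larger in PC3 cells.

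Neither of the scaffolds related to EIF4G1 fell in PC3 cells. EIF4G2 encodes a form of eIF4G that lacks the site for eIF4E, and it measured 1282, 1294 and 1266 CPM with vehicle and 1368, 1389 and 1376 with pentamidine in PC3 cells. DU145 samples measured 1628, 1638 and 1623 with vehicle and 1437, 1455 and 1502 with pentamidine. EIF4G2 rose in PC3 cells (log2 fold change 0.11 ± 0.043 SE, adjusted p = 0.0466) and fell in DU145 cells (log2 fold change -0.15 ± 0.028 SE, adjusted p = 2.56e-05), in neither case with overlap, and the PC3 value missed the threshold under 10 of the alternatives tried, each sample left out in turn among them (0.10 to 0.12). EIF4G3 rose in PC3 cells, from 216, 207 and 209 to 237, 231 and 234 CPM (log2 fold change 0.16 ± 0.047 SE, adjusted p = 0.0125), and overlapped in DU145 cells, at 139, 129 and 142 with vehicle and 131, 135 and 136 with pentamidine (log2 fold change -0.025 ± 0.04 SE, adjusted p = 0.676). The PC3 call of EIF4G3 was lost without pentamidine replicate 1 (0.15, adjusted p = 0.0643).

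The helicase EIF4A2 rose in both lines, by 0.30 ± 0.047 and 0.19 ± 0.031 on the log2 scale (SE, adjusted p = 5.51e-05 and 1.16e-06). EIF4A3, a relative that works in the exon junction complex, measured 130, 113 and 137 CPM with vehicle and 97.3, 108 and 104 with pentamidine in PC3 cells. DU145 samples measured 156, 164 and 161 with vehicle and 152, 158 and 155 with pentamidine. It fell in PC3 cells (log2 fold change -0.29 ± 0.068 SE, adjusted p = 0.00219) and overlapped in DU145 cells (log2 fold change -0.043 ± 0.038 SE, adjusted p = 0.405). EIF4E2, a cap-binding protein that represses translation, fell in both lines, with log2 fold changes of -0.17 and -0.15 (adjusted p = 0.0346 and 0.0153). The PC3 call of EIF4E2 was lost with DESeq2 (adjusted p = 0.061), with the replicate block (0.0592) and when any 1 sample other than vehicle replicate 1 was left out (-0.14 to -0.18). The DU145 call was lost with library size alone (-0.10, adjusted p = 0.113) and without vehicle replicate 2 or 3 or pentamidine replicate 3 (-0.13 to -0.14). EIF4H and EIF4ENIF1 passed the test in neither line. DRG1 and SFI1 overlap EIF4ENIF1 on the opposite strand with 225% and 139% of its mean count. EIF4A1, the main helicase, had only 138 to 218 counts per sample, while its copy EIF4A1P10 held 275 to 499% of that, so its counts do not give a usable level. The copy had log2 fold changes of 0.075 (adjusted p = 0.688) in PC3 and -0.20 (adjusted p = 0.00909) in DU145 cells. EIF4E3 had 1 to 6 counts in PC3 and 6 to 16 in DU145 samples, too few in PC3 samples for the test.

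EIF4EBP1, for a repressor of eIF4E, had the largest fold change of the set in both lines. It measured 97.0, 97.4 and 104 CPM with vehicle and 227, 221 and 218 with pentamidine in PC3 cells. The values for DU145 were 122, 130 and 125 with vehicle and 217, 210 and 210 with pentamidine. Every treated sample lay above every vehicle sample, also across lines, and the log2 fold change was 1.16 ± 0.052 (SE, adjusted p = 1.13e-11) in PC3 and 0.76 ± 0.038 (SE, adjusted p = 1.10e-23) in DU145 cells, or 2.24-fold and 1.70-fold. EIF4EBP2 (chromosome 10, 70404379 to 70428618) fell in PC3 cells, where it measured 79.2, 72.5 and 68.9 CPM with vehicle and 54.0, 45.6 and 54.8 with pentamidine, without overlap (log2 fold change -0.51 ± 0.075 SE, adjusted p = 3.28e-05). In DU145 cells it measured 129, 136 and 135 with vehicle and 120, 124 and 130 with pentamidine, which overlapped (log2 fold change -0.092 ± 0.041 SE, adjusted p = 0.0742).

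**Figure D2:**
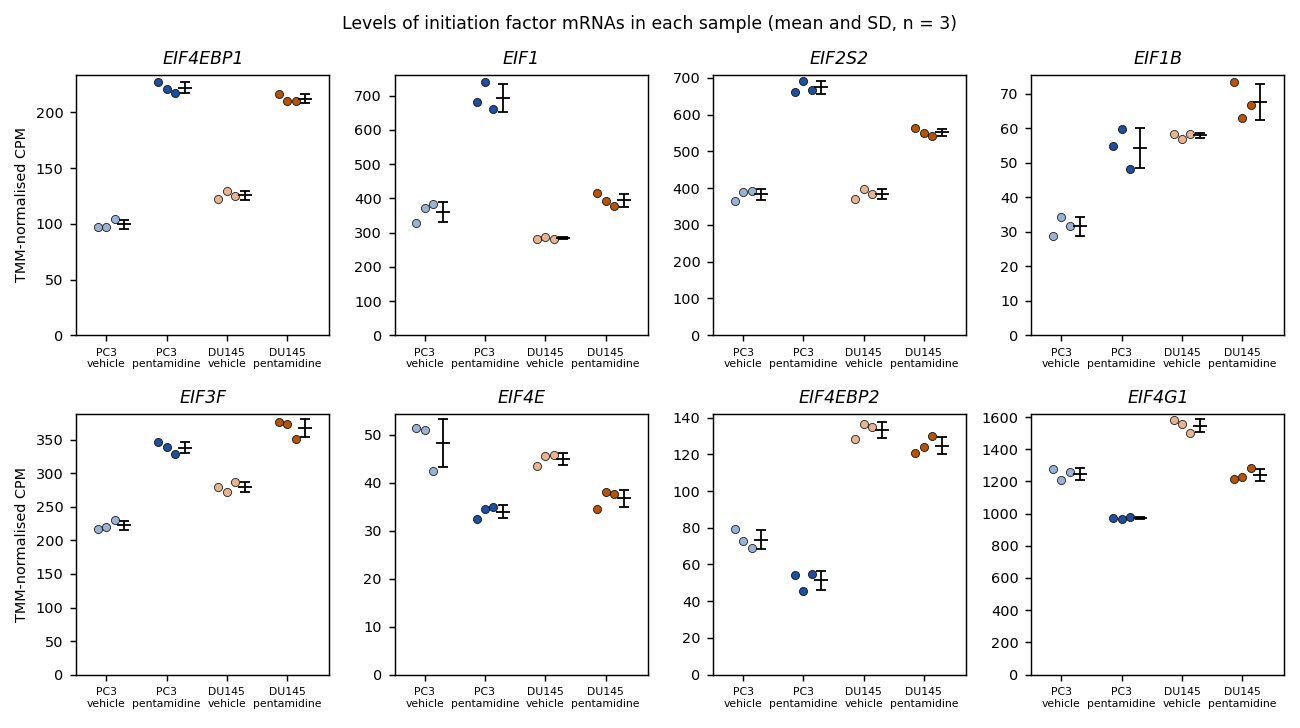
TMM-normalised CPM of 8 members in each of the 12 samples (points), with the mean and SD of the 3 samples of a group beside them. EIF4EBP1, EIF1, EIF2S2, EIF1B and EIF3F are higher and EIF4E and EIF4G1 lower in the treated samples of both lines, without overlap. EIF4EBP2 is lower without overlap in PC3 cells, and its DU145 samples overlap.

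Ratios of CPM per kilobase of exon, chosen after the values were seen and given without a test, put these changes side by side. The ratio of EIF4EBP1 to EIF4E was 27.3 ± 4.22 with vehicle and 86.0 ± 5.42 with pentamidine in PC3 cells (SD, n = 3), and 36.6 ± 0.866 and 75.9 ± 5.37 in DU145 cells. That of EIF4EBP1 to EIF4EBP2 was 9.20 ± 0.977 and 29.4 ± 3.11 in PC3 cells, and 6.37 ± 0.103 and 11.5 ± 0.611 in DU145 cells. Between the subunits of eIF2, the ratio of EIF2S2 to EIF2S3 was 2.95 ± 0.0402 and 3.83 ± 0.0733 in PC3 cells, and 1.69 ± 0.0317 and 2.15 ± 0.0776 in DU145 cells. The ratio of EIF1 to EIF5, whose proteins act against each other in start codon choice, was 2.44 ± 0.21 and 3.98 ± 0.256 in PC3 cells, and 1.36 ± 0.0291 and 1.83 ± 0.0911 in DU145 cells. None of these ratios overlapped between treated and vehicle samples of a line. They depend on exon lengths summed over all annotated isoforms, which is 14067 bases for EIF4E, so that the height of a ratio means less than its change.

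Among the factors of subunit joining, EIF5B fell in both lines, while EIF5 and EIF6 rose in PC3 cells. EIF5B, the GTPase that brings the ribosomal subunits together, measured 358, 367 and 351 CPM with vehicle and 276, 282 and 278 with pentamidine in PC3 cells. DU145 cells had 331, 349 and 338 with vehicle and 308, 297 and 297 with pentamidine. It fell in both lines without overlap, with log2 fold changes of -0.36 ± 0.046 (SE, adjusted p = 7.99e-06) and -0.17 ± 0.033 (SE, adjusted p = 5.11e-05). EIF5, which makes eIF2 hydrolyse its GTP, measured 348, 348 and 345 CPM with vehicle and 404, 409 and 416 with pentamidine in PC3 cells. In DU145 samples they were 489, 483 and 495 with vehicle and 504, 516 and 500 with pentamidine. Treated samples lay above the vehicle samples in both lines, and the difference passed the test in PC3 cells (log2 fold change 0.24 ± 0.045 SE, adjusted p = 0.000301) and not in DU145 cells (log2 fold change 0.056 ± 0.031 SE, adjusted p = 0.156). EIF6, which keeps the large subunit from joining too early, rose in PC3 cells, from 170, 178 and 189 to 213, 216 and 217 CPM (log2 fold change 0.27 ± 0.052 SE, adjusted p = 0.000461). In DU145 cells it measured 263, 257 and 261 with vehicle and 279, 262 and 260 with pentamidine, which overlapped (log2 fold change 0.041 ± 0.034 SE, adjusted p = 0.38).

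EIF5A, an abundant factor that now counts mainly as an elongation factor, passed the test in neither line, at log2 fold changes of -0.017 ± 0.073 (SE, adjusted p = 0.866) and 0.015 ± 0.032 (SE, adjusted p = 0.754). EIF5AL1, a copy of EIF5A with which it can share reads, was the lowest of these genes in DU145 cells, at 35.2, 37.0 and 35.3 CPM with vehicle and 33.3, 26.9 and 26.9 with pentamidine (log2 fold change -0.30 ± 0.074 SE, adjusted p = 0.00101). Its PC3 samples, 29.3, 25.0 and 27.0 with vehicle and 23.9, 27.1 and 24.9 with pentamidine, overlapped (log2 fold change -0.093 ± 0.085 SE, adjusted p = 0.402). EIF5A2, its tissue-restricted relative, fell in DU145 cells (log2 fold change -0.26 ± 0.09 SE, adjusted p = 0.0207) and had -0.015 ± 0.096 (SE, adjusted p = 0.915) in PC3 cells. The DU145 call of EIF5A2 was lost with DESeq2 (adjusted p = 0.065), with library size alone (0.066), and without vehicle replicate 3 (-0.23, adjusted p = 0.0886) or pentamidine replicate 1 (-0.21, adjusted p = 0.113).

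Set side by side, most members that were called in both lines moved the same way, with larger fold changes in PC3 cells. Of 46 members tested in both lines, 14 were higher in both (9.94% of the 13125 genes tested in both were) and 8 were lower in both (9.62% of genes). EIF3A and EIF4G2 were called in opposite directions, 9 members were called in PC3 cells alone, 6 in DU145 cells alone, all of them lower, and 7 in neither. The shares of all genes in these last classes were not computed, so whether they are particular to the members was not tested. The fold change was the larger in PC3 cells for 13 of the 14 and for 8 of the 8. The matching share of all genes was not computed. Large changes were more frequent in PC3 cells over all genes too. At an adjusted p below 0.05, 4.75% of them passed an absolute log2 fold change of 1 in PC3 and 2.03% in DU145 cells. Across the 46 members, Pearson's r between the log2 fold changes of the lines was 0.871, a description over genes that share the same 12 libraries. It was not computed over all genes. An interaction term in a fit of all 12 samples tested the difference itself and called 19 of 47 members. The log2 fold change was above that of DU145 cells in 16 (34%, where 10.2% of 15226 genes were) and below it in 3 (6.38%, where 10.3% were). With library size alone, 10 were above and 5 below.

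The largest differences were those of EIF1B, 0.55 ± 0.11 (SE, adjusted p = 0.000301), EIF1, 0.46 ± 0.072 (SE, adjusted p = 2.10e-05), and EIF4EBP1, 0.40 ± 0.062 (SE, adjusted p = 2.00e-05), all larger in PC3 cells. EIF4EBP2, -0.42 ± 0.086 (SE, adjusted p = 0.000723), EIF4A3, -0.25 ± 0.079 (SE, adjusted p = 0.025), and EIF5B, -0.19 ± 0.054 (SE, adjusted p = 0.0121), were those whose log2 fold change was the lower in PC3 cells. In the eIF2 complex the difference was 0.30 ± 0.057 (SE, adjusted p = 0.00032) for EIF2S2 and 0.27 ± 0.058 (SE, adjusted p = 0.00114) for EIF2S3, and in eIF2B it was 0.27 ± 0.071 (SE, adjusted p = 0.0063) for EIF2B5. Of the eIF3 genes, EIF3D (0.31 ± 0.059 SE, adjusted p = 0.000295), EIF3J (0.30 ± 0.065 SE, adjusted p = 0.000931), EIF3A (0.29 ± 0.052 SE, adjusted p = 0.000115), EIF3I (0.23 ± 0.066 SE, adjusted p = 0.0154), EIF3F (0.21 ± 0.058 SE, adjusted p = 0.00905) and EIF3M (0.20 ± 0.058 SE, adjusted p = 0.0146) passed the test. EIF3C, at 0.34 ± 0.13 (SE, adjusted p = 0.0553), missed it. The remaining calls were EIF4G2 (0.26 ± 0.047 SE, adjusted p = 0.000153), EIF6 (0.23 ± 0.061 SE, adjusted p = 0.00707), EIF5 (0.19 ± 0.051 SE, adjusted p = 0.00805) and EIF4G3 (0.18 ± 0.062 SE, adjusted p = 0.0374). The call for EIF4A3 was lost without any 1 of 6 samples (-0.18 to -0.25) and that for EIF4G3 without any 1 of 7 (0.16 to 0.19). Without vehicle replicate 1 of DU145 cells that for EIF5B was lost (-0.17, adjusted p = 0.0531), without pentamidine replicate 1 that for EIF3M (0.17, adjusted p = 0.0543) and without pentamidine replicate 3 that for EIF3I (0.19, adjusted p = 0.0644).

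**Figure D3:**
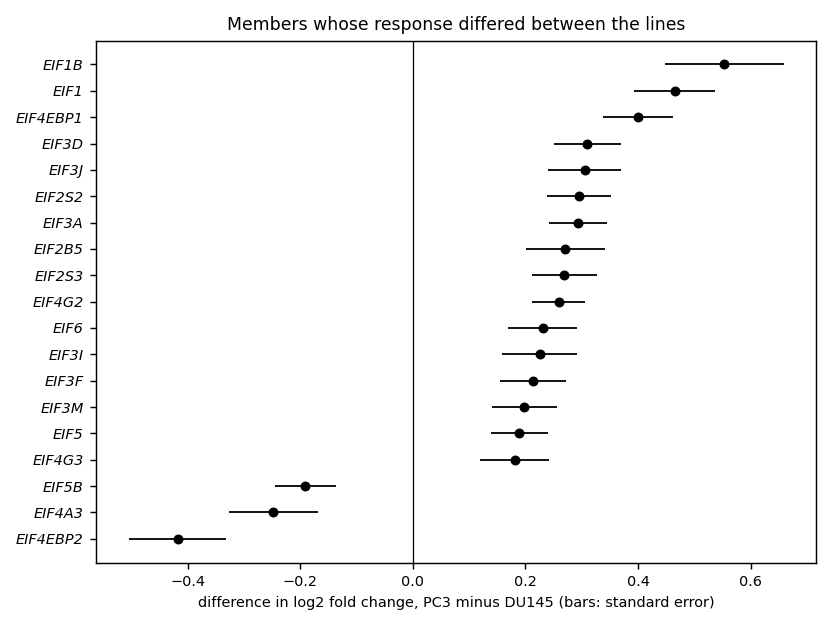
Difference in log2 fold change, PC3 minus DU145, with its standard error for the 19 members called in the interaction fit of all 12 samples. The 16 points right of 0 run from 0.18 (EIF4G3) to 0.55 (EIF1B), and the 3 left of 0 from -0.19 (EIF5B) to -0.42 (EIF4EBP2).

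The vehicle-treated lines differed in their levels of the set. Of 46 members tested, 9 were higher in PC3 than in DU145 cells (19.6%, where 31.5% of 14394 genes were) and 24 were lower (52.2%, where 33.8% were), with a median log2 fold change of -0.17 against -0.010 for all genes. EIF1B was lowest in PC3 relative to DU145 cells, at -0.90 ± 0.073 (SE, adjusted p = 1.57e-08), followed by EIF4EBP2 at -0.88 ± 0.057 (SE, adjusted p = 9.42e-10), EIF2S3 at -0.83 ± 0.05 (SE, adjusted p = 3.62e-10) and EIF2B5 at -0.67 ± 0.052 (SE, adjusted p = 7.98e-09). EIF4G3, at 0.60 ± 0.05 (SE, adjusted p = 2.09e-08), EIF2B1, at 0.49 ± 0.06 (SE, adjusted p = 2.15e-06), EIF3C, at 0.45 ± 0.078 (SE, adjusted p = 8.76e-05), and EIF3J, at 0.42 ± 0.048 (SE, adjusted p = 9.74e-07), were highest. EIF2S2 (-0.032 ± 0.049 SE, adjusted p = 0.588), EIF4E (0.08 ± 0.076 SE, adjusted p = 0.369) and EIF3L (-0.008 ± 0.046 SE, adjusted p = 0.89) did not pass the test. By group, levels were lower in PC3 cells for 3 of 4 eIF1 genes (75%), 3 of 4 eIF2 genes (75%) and 6 of 11 eIF4 genes (54.5%). So were 4 of 6 eIF5 and eIF6 genes (66.7%) and both EIF4EBP genes, against 33.8% of all genes. Of the eIF1 and eIF4 genes 1 each was higher, and of the eIF2B genes 2 were higher and 2 lower (40% each). Of the 14 eIF3 genes 5 were higher and 4 lower (35.7% and 28.6%), near the 31.5% and 33.8% of all genes. The 6 eIF4 genes include EIF4A1, whose counts do not give a usable level. The 5 higher eIF3 genes include both of the near-identical EIF3C and EIF3CL. The call for EIF4A1 was lost without vehicle replicate 1 of DU145 cells (-0.41 became -0.22, adjusted p = 0.184), without vehicle replicate 2 of PC3 cells (-0.37, adjusted p = 0.0819) and with library size alone (-0.33, adjusted p = 0.0556). That for EIF4ENIF1 was lost under 6 alternatives (-0.11 to -0.20), among them leaving out vehicle replicate 1 of either line or replicate 2 of DU145 cells. Those for EIF3G and EIF3CL were lost under 5 each. For EIF3G these were the filter of 10 counts in every sample and leaving out vehicle replicate 3 of PC3 or any 1 of DU145 cells (0.091 to 0.14). For EIF3CL they were DESeq2, the replicate block and leaving out vehicle replicate 3 of PC3 or 2 or 3 of DU145 cells (0.31 to 0.40). That for EIF3A was lost with library size alone (-0.074, adjusted p = 0.121).

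Per kilobase of exon, the order of levels shifted with treatment. In vehicle-treated PC3 cells EIF3I stood at 269 ± 21.0 CPM per kilobase (SD, n = 3) and EIF5A at 231 ± 30.3, whose SDs overlapped, followed by EIF4G1 at 151 ± 4.29, EIF4G2 at 148 ± 1.60 and EIF2S2 at 144 ± 5.91, which did not differ beyond their spread. With pentamidine EIF3I stood at 310 ± 8.33, EIF2S2 at 254 ± 6.27, EIF5A at 227 ± 6.64, EIF4EBP1 at 207 ± 4.54 and EIF1 at 192 ± 11.2. EIF4EBP1 went from the 10th to the 4th place and EIF4G1 from the 3rd to the 9th. In DU145 cells EIF5A was first with vehicle (285 ± 15.1) and with pentamidine (288 ± 7.80), and EIF4EBP1 went from 117 ± 3.68 to 198 ± 3.66. Per kilobase, EIF4E was low throughout, at 3.43 ± 0.360 and 2.41 ± 0.0972 in PC3 and 3.19 ± 0.0927 and 2.61 ± 0.132 in DU145 cells. Levels between genes depend here on exon lengths summed over all annotated isoforms, 14067 bases for EIF4E. Before division by length, EIF4E stood at 48.3 ± 5.07 CPM in vehicle-treated PC3 cells, above EIF1B at 31.65 ± 2.72.

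**Figure D4:**
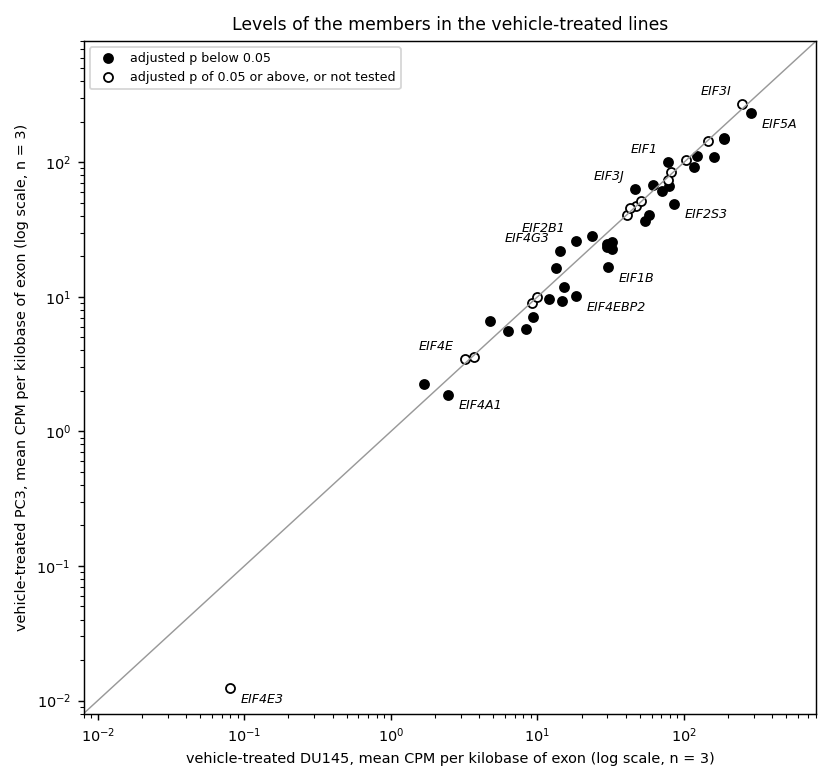
Mean CPM per kilobase of exon of each member in vehicle-treated DU145 (horizontal) and PC3 cells (vertical), both on log scales, 3 samples each. Filled points have an adjusted p below 0.05 between the lines and the grey line marks equal levels. EIF3I and EIF5A lie at the top right, EIF4E3 stands alone at the bottom left, and EIF1B, EIF2S3 and EIF4EBP2 lie below the line.

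Genes that work with the initiation factors were mixed in the same fits. Of 20 listed partners of initiation, 6 rose and 8 fell in PC3 cells (30% and 40%, against 21.7% and 21.7% of all genes) and 5 rose and 6 fell in DU145 cells (25% and 30%, against 17.2% and 16.8%). MKNK2, a kinase that phosphorylates eIF4E, measured 82.9 ± 2.54 CPM with vehicle and 308 ± 13.8 with pentamidine in PC3 cells (SD, n = 3), and 90.0 ± 1.97 and 137 ± 7.13 in DU145 cells, with log2 fold changes of 1.90 ± 0.054 (SE, adjusted p = 1.97e-14) and 0.62 ± 0.043 (SE, adjusted p = 2.08e-17). PDCD4, an inhibitor of eIF4A, measured 16.4 ± 0.833 and 39.1 ± 0.701 CPM in PC3 and 25.0 ± 1.19 and 44.8 ± 4.38 in DU145 cells, with log2 fold changes of 1.26 ± 0.079 (SE, adjusted p = 1.19e-09) and 0.85 ± 0.072 (SE, adjusted p = 2.05e-14). MKNK2 and PDCD4 were the 2 of 20 partners past an adjusted p of 0.05 and an absolute log2 fold change of 1 in PC3 cells (4.75% of all genes were). None of the 20 was in DU145 cells (2.03% of all genes).

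Of 11 genes of cytosolic elongation and termination, 5 of 10 tested rose and 2 fell in PC3 cells (50% and 20%, against 21.7% and 21.7% of all genes), and 4 of 11 rose and 2 fell in DU145 cells (36.4% and 18.2%, against 17.2% and 16.8%). The shares that fell were near those of all genes. EEF2, the translocase, rose by 0.61 ± 0.045 (SE, adjusted p = 9.86e-09) in PC3 and 0.31 ± 0.027 (SE, adjusted p = 5.17e-14) in DU145 cells on the log2 scale, from 2751 ± 126 to 4174 ± 26.7 CPM and from 3702 ± 113 to 4579 ± 24.3. EEF1A2, a tissue-restricted form of eEF1A, rose by 0.97 ± 0.24 (SE, adjusted p = 0.0036) in PC3 cells, where it measured only 1.59 ± 0.311 CPM with vehicle, and by 0.47 ± 0.04 (SE, adjusted p = 1.92e-14) in DU145 cells, where it measured 114 ± 4.78. Of 10 mitochondrial translation factors, 1 fell in each line and none rose (10% lower, against 21.7% of all genes in PC3 and 16.8% in DU145 cells), MTRF1 in PC3 cells (log2 fold change -0.33 ± 0.11 SE, adjusted p = 0.0243) and GFM1 in DU145 cells (log2 fold change -0.19 ± 0.049 SE, adjusted p = 0.00126).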

How the data were processed

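Total RNA from PC3 and DU145 cells was enriched for mRNA with Oligo(dT) beads and sequenced by the authors. Per the submitters' processing notes, HISAT2 2.1.0, DESeq 1.18.1 and the genome build GRCh38 were used. The deposited counts are raw, as whole reads on each gene, and the counting program and its strand setting are not given in the sources used here, so overlapping genes on opposite strands may share reads. A table of normalized values and the authors' tables of their own comparisons, which hold fold changes and p-values, were not used. Entries with the same name and the same counts were kept once, which left 32077 genes of 33595 entries, and 44 lines without a gene identifier were ignored. Samples were grouped by their labels.

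EIF4EBP1 and EIF4EBP2 end in P and a digit but were kept, because the comparison of the EIF4EBP genes is part of the rule. The members and lists were chosen with earlier results of these data known. Counts were tested with edgeR 4.0.16 in R 4.3.3 (glmQLFit and glmQLFTest, TMM, filterByExpr with a minimum count of 10), on 6 samples per comparison and on 12 for the interaction of line and treatment. P-values were adjusted over all genes tested by the Benjamini-Hochberg method. The scripts were tested on simulated data. CPM was computed on TMM-scaled library sizes, and levels per kilobase used exon lengths of GENCODE. All 47 members were found there, 45 at the position given in the count table.

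Values in every sample are given for members with an adjusted p below 0.05 and an absolute log2 fold change of at least 0.5 in a line, for the highest and lowest member of each group in each line, and for members called in the interaction. Of each further list, the 2 genes with the largest change past the threshold in each line were named, and EEF1G was not analysed here. Alternatives were DESeq2 1.42.0, RLE factors, library size alone, scaling without mitochondria-encoded genes, other filters and thresholds, near-identical copies summed, all 12 samples in one fit, the replicate number as a block, and each sample left out in turn. With about the same depth in every sample, precision was set mainly by the spread between samples. Without molecular identifiers, a count is not a number of independent molecules.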

Additional observations from a re-analysis of the deposited data

Results flagged for a closer look

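The log2 fold change differed between the lines for 19 members, by the interaction term of an edgeR quasi-likelihood fit, adjusted over 15226 genes. The difference, PC3 minus DU145, was above 0 for EIF1 (0.46), EIF1B (0.55), EIF2S2 (0.30), EIF2S3 (0.27), EIF2B5 (0.27), EIF3A (0.29), EIF3D (0.31), EIF3F (0.21), EIF3I (0.23), EIF3J (0.30), EIF3M (0.20), EIF4G2 (0.26), EIF4G3 (0.18), EIF4EBP1 (0.40), EIF5 (0.19) and EIF6 (0.23). It was below 0 for EIF4A3 (-0.25), EIF4EBP2 (-0.42) and EIF5B (-0.19). With library size alone as the scaling, 15 members in place of 19 passed the test, 10 above and 5 below 0, and the calls for EIF3F, EIF3I, EIF3M, EIF4G3, EIF5 and EIF6 were lost. Leaving out samples in turn, the call for EIF4A3 was lost without 6 of the 12 and that for EIF4G3 without 7. That for EIF5B was lost without vehicle replicate 1 of DU145 cells, and those for EIF3M and EIF3I without pentamidine replicate 1 and 3 of DU145 cells.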

How the results depend on the processing

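No member called in the report changed direction under any alternative. Of 115 calls, 86 held under all of them, stricter thresholds aside: 27 of 33 in PC3 cells, 20 of 30 in DU145 cells, 11 of 19 differences between lines and 28 of 33 between vehicle-treated lines. With library size alone, DU145 cells had 19 members higher and 8 lower in place of 14 and 16, and the median of all genes tested moved to 0.058. Requiring an absolute log2 fold change above 1 as well left 1 member higher and 0 lower in PC3, 0 and 0 in DU145, 0 in the interaction, and 0 higher and 0 lower between the vehicle-treated lines. Leaving out each sample in turn gave 20 to 24 higher and 8 to 11 lower members in PC3 cells, 12 to 15 and 10 to 15 in DU145 cells, 17 to 20 in the interaction, and 7 to 10 higher and 22 to 26 lower between the lines. The 10 came without vehicle replicate 3 of DU145 cells, and the cause was not tested. DESeq2 gave 23 and 9 for PC3, 14 and 13 for DU145, and 20 in the interaction. The calls lost under at least 1 alternative were those of EIF2A, EIF2B5, EIF3CL, EIF4E2, EIF4G2 and EIF4G3 in PC3 cells, of EIF3A, EIF3CL, EIF3G, EIF4A1 and EIF4ENIF1 between the vehicle-treated lines, and of EIF1AD, EIF1AX, EIF2A, EIF2B1, EIF2B2, EIF3A, EIF3D, EIF3E, EIF4E2 and EIF5A2 in DU145 cells, beside those in the interaction given above.

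With the replicate number as a block, 22 members were higher and 8 lower in PC3 cells, 14 and 14 in DU145 cells, 18 differed in response, and 8 were higher and 24 lower between the lines. Samples with the same number correlated at -0.193 to 0.0535 in their deviations from the group means over 6 pairs, and 2 of 6 vehicle samples correlated best with their own number, so the numbers were not taken to pair samples. Depth limited EIF4E3, whose 1 to 16 counts per sample are too few to show a change of the sizes reported for other members.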
